A study of Mus musculus with 4 samples.

Results

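The regions described here were open in all 4 libraries of an accessibility study but ranked lower where the transcription factor gene Maf had been deleted. Peaks of the 4 libraries were merged into 171490 regions on chromosomes 1 to 19 and X, and 78650 of these held a peak in every library. In each library the highest fold enrichment within a region was turned into a percentile among the 78650 shared regions. This fold is the authors' ratio of the peak summit to its local background, with 1 added to each. A region was a member when the higher of its percentiles in the Maf-deficient libraries lay at least 20 points below the lower of its percentiles in the control libraries. This rule found 993 members, 1.26% of the shared regions. The mirrored rule found 849 regions, 1.08%, that ranked higher in the Maf-deficient libraries. The members were chosen by the fold enrichments themselves, so the ranks below are a description and carry no test.

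The study measured open chromatin by Omni-ATAC-seq, in which Tn5 transposase inserts sequencing adapters into accessible DNA, in immature γδ thymocytes of embryonic day 17 to 18 mouse fetuses. The control group (WT) was Maf+/+ Il7rCre and the deficient group (KO) was Maf fl/fl Il7rCre, on a C57Bl/6 background backcrossed for 5 generations (N5), with 2 libraries each. Both groups therefore carried the Cre driven by Il7r. This Cre is active in lymphoid cells and deletes the floxed gene there, while other cells of the KO fetuses keep it. Cells lacking CD4 and CD8 and positive for TCRgd, CD3e and CD24 with low CD45RB were sorted from pooled fetuses, 15 to 17 (in units of 1000 cells) for a library, and the labels do not say whether libraries of one genotype came from separate pools, so that the spread between them may be technical. With 2 libraries against 2 the smallest p of an exact permutation test is 0.33, and no test between the genotypes was run.

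c-Maf, the product of Maf, is a basic leucine zipper factor that binds DNA as a dimer and is required for the γδ T cells that make IL-17. These cells acquire their program in the fetal thymus under factors such as RORγt, SOX13 and SOX4, and express receptors for IL-1, IL-7 and IL-23. Accessible regions away from promoters are often enhancers, whose openness varies with cell state more than that of promoters.

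A promoter window of the RefSeq table (GRCm38.p6, 250 bases before to 50 after a gene's start) was overlapped by 22 members, and by 10375 of the 78650 shared regions. The windows of Il17f, Havcr2 and Atf3 are shown because these are the listed genes whose own promoter held a member. Il17f encodes a signature cytokine of type 17 cells, Havcr2 the inhibitory receptor TIM-3, and Atf3 a stress-induced bZIP factor. Capitals mark matches to any of 11 short motifs searched on both strands. The Il17f window is chr1:20784221-20784520 on the minus strand and 289 of its bases lay in the member. The Havcr2 window is chr11:46454681-46454980 on the plus strand, with 296 bases in the member. The Atf3 window is chr1:191183284-191183583 on the minus strand, with 227 bases in the member. Each is written 5′ to 3′ along the gene.
Il17f promoter: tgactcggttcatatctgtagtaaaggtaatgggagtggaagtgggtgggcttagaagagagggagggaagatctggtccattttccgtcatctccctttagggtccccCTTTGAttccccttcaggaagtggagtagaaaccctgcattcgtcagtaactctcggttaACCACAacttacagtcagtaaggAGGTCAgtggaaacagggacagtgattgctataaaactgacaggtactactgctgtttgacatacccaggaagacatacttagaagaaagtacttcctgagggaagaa
Havcr2 promoter: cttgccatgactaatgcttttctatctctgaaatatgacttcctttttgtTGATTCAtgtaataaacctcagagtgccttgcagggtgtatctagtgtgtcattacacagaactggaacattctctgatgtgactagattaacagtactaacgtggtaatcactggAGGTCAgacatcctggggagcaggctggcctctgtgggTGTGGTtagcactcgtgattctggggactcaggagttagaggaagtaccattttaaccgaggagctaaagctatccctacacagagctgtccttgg
Atf3 promoter: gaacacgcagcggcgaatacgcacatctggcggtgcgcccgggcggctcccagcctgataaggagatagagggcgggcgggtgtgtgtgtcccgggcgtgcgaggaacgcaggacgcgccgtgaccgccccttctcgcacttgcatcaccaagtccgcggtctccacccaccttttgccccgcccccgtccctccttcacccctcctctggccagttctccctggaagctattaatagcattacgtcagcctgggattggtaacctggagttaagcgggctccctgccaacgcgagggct
The Il17f window held a TCF/LEF motif (CTTTGA) beginning 141 bases before the start, a RUNX motif (TGTGGT, on the opposite strand, read here as ACCACA) 81 bases before it and a ROR motif (AGGTCA) 58 bases before it. The Havcr2 window held an AP-1 motif (TGANTCA) 200 bases, a ROR motif 84 bases and a RUNX motif 46 bases before the start. The Atf3 window, 64.7% G or C, matched none of the motifs searched. The MAF motif TGCTGA was in none of these windows. It stood in 4 of the 23 windows that overlapped a member (17.4%), in 15.1% of the 12799 windows that overlapped any shared region and in 19.5% of all 32585 windows. In the same order, RUNX motifs stood in 6 of the 23 windows (26.1%), 12.7% and 16.6%, and TCF/LEF motifs in 5 (21.7%), 11.6% and 16.0%. AP-1 motifs stood in 3 (13.0%), 4.57% and 7.85%, and ROR motifs in 3 (13.0%), 11.2% and 16.2%. The extended MAF motif TGCTGAC, which contains the shorter one, stood in 1 (4.35%), 3.59% and 4.70%. The cyclic AMP element TGACGTCA stood in 2 (8.70%), 3.41% and 1.80%, and the ETS motif ACAGGAA in 2 (8.70%), 7.59% and 8.71%. The E-box CAGCTG stood in 3 (13.0%), 14.9% and 16.4%, and a further E-box spelled CAGGTG in 6 (26.1%), 18.4% and 20.3%. The GATA motif, spelled AGATAA, stood in 2 (8.70%), 5.59% and 11.2%. With 23 windows these shares are descriptions, and a match is not a bound site.

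Of the depth measures in the peak lists, only the background followed genotype. The lowest background pileup, the count expected by chance at a quiet position, was 1.57 in WT 1 and 1.38 in WT 2, and 0.877 in KO 1 and 0.758 in KO 2. Its part in the results below was not tested. The WT lists held 102718 and 132179 peaks and the KO lists 130935 and 120141, with no split by genotype. Every library had peaks within 1 kb of the ends of all 11 genes listed as γδ T cell markers, and of 14 to 15 of 16 housekeeping genes. These counts do not identify the cells. Markers of other cells had such peaks in 10 of 15 (αβ thymocyte), 5 to 6 of 12 (B cell), 5 to 7 of 14 (myeloid), 3 to 5 of 10 (erythroid) and 7 to 8 of 14 (epithelium and stroma). Their part in the ranks was not tested.

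The members sat in the middle of the WT ranking and near the bottom of the KO ranking. Their median percentile was 60.5 in WT 1, 60.6 in WT 2, 19.8 in KO 1 and 21.5 in KO 2. In bulk libraries, fewer cells with a region open and less opening per cell cannot be told apart. In fold enrichment, the members had a median of 8.78 in WT 1 and 12.7 in WT 2 against 5.86 in KO 1 and 6.83 in KO 2. The medians of all shared regions were 7.34 and 10.5 in WT and 9.75 and 11.2 in KO, so that the same fold stood at a lower rank in either KO library than in WT 1. Both KO folds were below both WT folds in 898 members, a criterion that 4.53% of shared regions met. Of the 993 members, 501 (50.5%) were below the 25th percentile in both KO libraries, against 18.4% of all shared regions. Above the 75th in both WT libraries were 152 (15.3%), fewer than the 20.7% of all shared regions. There were 167 shared regions, 0.212%, that were above the 50th percentile in both WT libraries and below the 25th in both KO libraries. Any such region meets the rule and is a member by definition.

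**Figure D1:**
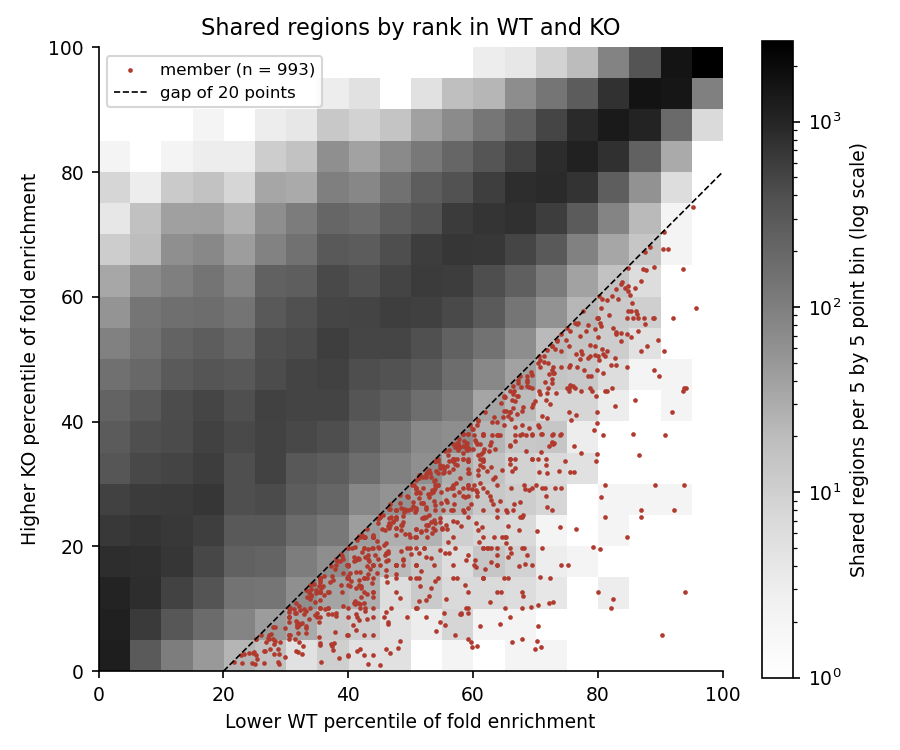
Each shared region is placed by the lower of its WT percentiles (x axis) and the higher of its KO percentiles (y axis) of fold enrichment. Grey shows the number of shared regions per bin of 5 by 5 points on a log scale, red points are the 993 members, and the dashed line marks the gap of 20 points; members reach from just under the line to a gap of 84.5 points.

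The gap between the lower WT and the higher KO percentile had a median of 27.0 points among members and reached 84.5. A gap of at least 40 points was seen in 157 regions, 0.2% of the shared regions, and the mirrored gap in 20, 0.0254%. At 60 points the counts were 19, 0.0242%, and 0. Just inside the threshold were regions at Ccdc162, Cbfa2t2, Gm32663, Gm22899 and Dhcr7, and just outside it regions at Gm22382, Rec114, Gm13855, Maml3 and Megf9. The region at Cbfa2t2 had folds of 11.7, 20.2, 9.06 and 11.9 in WT 1, WT 2, KO 1 and KO 2, and the excluded one at Maml3 had 7.39, 10.5, 6.93 and 7.96. Regions at the threshold thus did not always separate in raw fold, and WT 1 lay below KO 2 in both of these examples.

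Pileup counts at the summit, recovered as whole numbers from the deposited fold and −log10 p, show how much counting error stands behind these ranks. Whether a count is a read or a fragment is not stated in the sources used here. Members had a median summit pileup of 26 in WT 1 and 45 in WT 2 against 12 in KO 1 and 14 in KO 2. All shared regions had medians of 23, 37, 25 and 29 in the same order. At the lowest background, 1 more count moved a KO 1 region from the percentile of 19.8 to 24.7, and a WT 1 region from 59.2 to 61.6. When each pileup was given its exact Poisson 95% interval and carried to the percentile scale, the intervals of both WT libraries lay above those of both KO libraries in 122 regions, 0.155% of the shared regions. Of these, 118 were members. The mirrored separation was seen in 8 regions, 0.0102%. The pileup was recovered in all 4 libraries for 976 members, and in the rest the KO 2 value was missing. These intervals cover counting error only and not the spread between preparations.

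The −log10 q of the same peaks, which comes from the same reads and is not independent, gave a gap of at least 20 points in 870 of the 993 members. That criterion was met by 1.5% of the shared regions. Peak width was not used by the rule. The highest peak of a member was narrower in both KO libraries than in both WT libraries in 591 members, against a background of 12.5%. Median widths of members were 220 and 277 bp in WT and 165 and 184 bp in KO, while all shared regions had medians of 186 and 234 bp in WT and 208 and 224 bp in KO. A lower summit leaves a narrower stretch above the calling threshold, so width and height are not separate measurements. In 923 members (93.0%) each library had exactly 1 peak, and in 970 (97.7%) the highest peaks of all 4 libraries shared at least 1 base, near the 90.9% and 98.5% of all shared regions. The median distance between WT and KO summits was 27.5 bp at members, against 16 bp between the WT libraries and 25 bp between the KO libraries. Over all shared regions these distances were 21.5, 15 and 14 bp.

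The 20 members with the widest gaps lay mostly inside genes, 15 of them within a gene body. The start-site table does not cover chromosome 18 and lacks some genes elsewhere, Car13 among them. The 19 outside chromosome 18 were all 2347 bp or more from a start site that it lists. Their fold enrichment ranged from 10.1 to 22.4 in WT 1 and from 14.1 to 34.8 in WT 2. In KO 1 it ranged from 3.27 to 6.93, and in KO 2 from 3.77 to 7.96. Both KO folds were below both WT folds in all 20, a criterion that 4.53% of shared regions met. The counting intervals on the percentile scale were apart in all 20, against 0.155% of shared regions. The 20 were chosen for the widest gap in ranks of the same folds, so neither separation is a further result.

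The widest gap, 84.5 points, was in a region of 407 bp (chr9:35430501-35430907) inside Cdon, a cell surface co-receptor of Hedgehog signalling, 21169 bp from the gene's start. The summit pileup there was 50 in WT 1 and 98 in WT 2, and 7 in each KO library. The fold was 18.99 in WT 1, 25.6 in WT 2, 4.26 in KO 1 and 4.55 in KO 2, which put the region above the 90th percentile in WT, at 90.3 and 91.2, and near the 5th in KO, at 5.86 and 5.16. Rhobtb1, which encodes a protein with BTB domains, held the next widest (chr10:69160927-69161324), with folds of 22.4, 32.2, 4.26 and 5.69 in the same order of libraries. A region inside Car13, a cytosolic carbonic anhydrase gene, had folds of 14.4, 24.1, 4.80 and 5.12. At Slc16a7, a monocarboxylate transporter gene, they were 20.6, 33.6, 5.33 and 7.40. In these 4 regions the KO percentiles ran from 5.16 to 25.8, and no WT percentile was below 82.1.

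Other genes among the 20 serve unrelated functions. Metap2, a methionine aminopeptidase gene, had folds of 13.6, 24.8, 4.80 and 5.69 in WT 1, WT 2, KO 1 and KO 2. Rreb1, a zinc finger factor downstream of Ras, had 13.8, 15.5, 3.76 and 4.33. Pak2, a kinase activated by Rac and Cdc42, had 10.7, 20.1, 3.75 and 4.55. Both KO libraries were below both WT libraries at each of these genes. Smox (spermine oxidase), Tspan14 (a tetraspanin), Zcchc7, Marchf6 (a ubiquitin ligase of the endoplasmic reticulum), Uvrag (autophagy), Fxyd3, Snx25 (a sorting nexin), Hapln3 and Pdzd2 held the others that have names, with gaps of 59.8 to 66.3 points. The remaining 4 were nearest to the predicted genes Gm52319, Gm35938, Gm34229 and Gm34233. None of the 20 was at a gene of the lists.

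**Figure D2:**
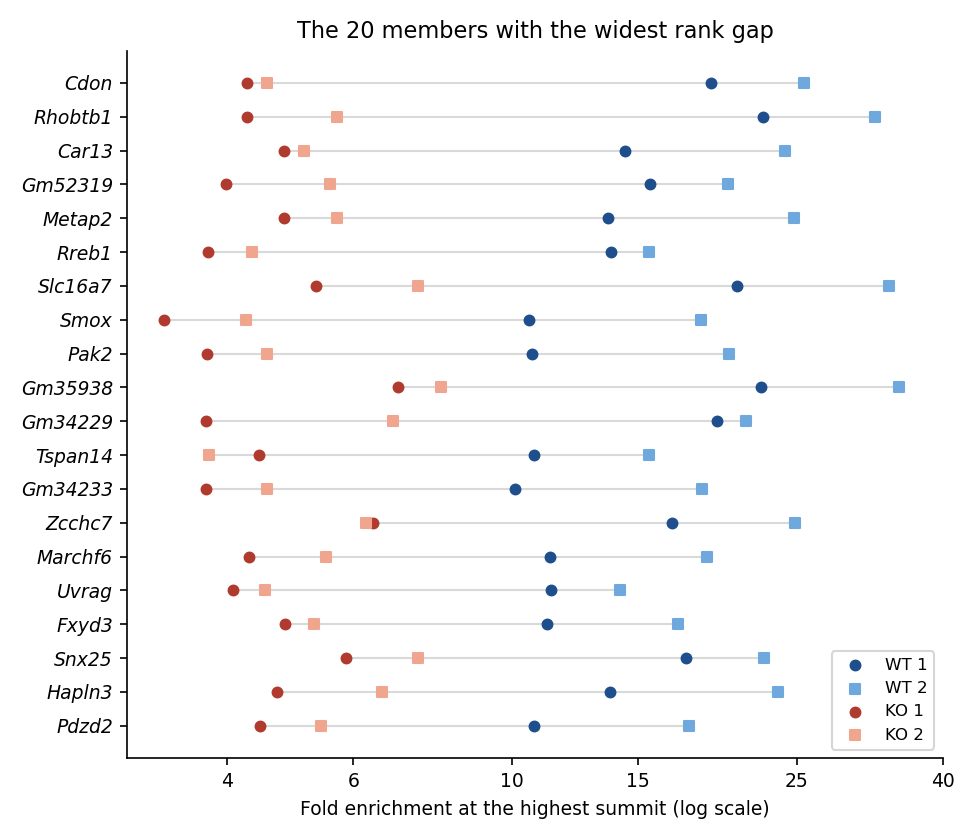
Fold enrichment at the highest summit (x axis, log scale) in each of the 4 libraries for the 20 members with the widest gap, ordered from widest (Cdon, 84.5 points) to the narrowest of the 20 (Pdzd2, 59.8 points). Blue points are WT and red points KO; the KO points reach at most 7.96 and the WT points start at 10.1.

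The 5 members that ranked highest in WT were at 2810021J22Rik, Pex7, Eif3h, Rhobtb1 and Gm35938. The region inside 2810021J22Rik had folds of 25.3 and 30.5 in WT against 10.7 and 12.9 in KO, and so remained above the KO median while leaving the top. At Eif3h, a translation initiation factor subunit, the folds were 22.7 and 32.9 in WT against 9.06 and 9.10 in KO. Pex7, the receptor for a peroxisomal import signal, had 24.2 and 31.6 against 10.3 and 17.6.

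Members were spread over many genes. The 987 members with a gene body within 100 kb were assigned to 916 genes, of which 58 had at least 2 members and 12 at least 3. Mad1l1, a spindle checkpoint gene, had the most, 4 of its 24 shared regions. Tshz2, Arhgef3, Ncoa2, Lamc1, Vps13d and Etv6 had 3 each among 16 to 37 shared regions. The non-coding gene 9830132P13Rik had 3 among 5, Xrra1 3 among 6, and Lpp, Tenm4 and Pakap 3 each among 24 to 33. In Tshz2, a zinc finger factor, the widest of the 3 gaps had folds of 15.4, 18.5, 4.80 and 6.64 in WT 1, WT 2, KO 1 and KO 2. In Etv6, an ETS family repressor, it had 11.4, 16.1, 6.08 and 8.92. Members stood beside regions that did not meet the rule, and 68 genes held both a member and a mirrored region. In Lamc1, which encodes a laminin chain, 3 members faced 2 mirrored regions. Across chromosomes the share of members ran from 0.909% on chromosome 14 to 1.63% on chromosome 2.

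Among the lists of genes with known roles, the type 17 program had 8 members among its 269 shared regions, 2.97%, and 1 mirrored region, at Sox5. Over all shared regions these shares were 1.26% and 1.08%. Both KO percentiles were below both WT percentiles in 65 of the 269 regions and above them in 41, against backgrounds of 18.1% and 18.6%. The median difference between the mean KO and the mean WT percentile was −1.45 points over the list and −0.0456 over all shared regions. The rule used this contrast, so nothing is read from these shares. The 8 members were at Maf, Il17f, Il17a, Il1r1, Il7r, Cd44, Rora and Zbtb16, 1 each.

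At Maf itself, the deleted gene, the member (chr8:115707722-115708810) began 828 bp outside the gene body. Its folds were 17.3 in WT 1, 15.5 in WT 2, 3.67 in KO 1 and 6.03 in KO 2, from summit pileups of 101, 173, 6 and 11. The highest peak of neither KO library overlapped the highest peak of a WT library there. This was so for 1 of the 993 members and for 4 of all shared regions. The WT and KO folds at Maf thus come from different stretches of the region. Which stretch of the Maf locus is floxed is not stated, so closed and deleted DNA cannot be told apart here.

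At Il17f the promoter whose sequence is given above lay in the member at chr1:20784232-20784612, the only shared region assigned to the gene. The pileup was 29 in WT 1 and 51 in WT 2, against 9 in KO 1 and 13 in KO 2. The folds were 10.6, 18.3, 5.33 and 7.96, and the percentiles 70.1, 78.6, 14.9 and 29.9. The counting intervals of the genotypes met on the percentile scale. The member assigned to Il17a, which encodes the sister cytokine, lay 19.99 kb from that gene, toward Il17f (chr1:20754483-20754762), with folds of 11.3 and 16.6 in WT. Its KO libraries were far apart, with a fold of 10.1 and a percentile of 52.1 in KO 1 but 5.69 and 12.7 in KO 2. The other 3 shared regions at Il17a were not members, but 1 of them, at chr1:20740397-20740906, also ranked lower in both KO libraries, with percentiles of 85.6 and 59.7 in WT and 58.7 and 47.7 in KO. The one at chr1:20743862-20744282 ranked higher, with 83.4 and 78.3 in WT and 89.0 and 84.4 in KO.

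The receptor and surface genes of the list each had 1 member. Il1r1, the signalling receptor of IL-1, had 1 member of 15 shared regions, inside the gene at chr1:40283846-40284328, with folds of 16.9 and 21.9 in WT and 12.0 and 13.5 in KO. Of its shared regions, 3 ranked lower in both KO libraries than in both WT libraries and 4 ranked higher. Il7r, the IL-7 receptor α chain gene whose regulatory sequences drive the Cre in both genotypes, had 1 of 6, with percentiles of 39.1, 46.4, 0.811 and 10.5 in WT 1, WT 2, KO 1 and KO 2. A region near Cd44, an adhesion receptor of activated and type 17 cells, had folds of 9.23, 15.3, 6.14 and 9.42, so KO 2 exceeded WT 1 in raw fold. The same held for none of the Il1r1 and Il7r values.

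Among transcription factors of the list, Rora, a nuclear receptor of type 17 cells, had 1 member among 45 shared regions, with folds of 5.45, 11.9, 4.26 and 3.98. Zbtb16, which encodes PLZF, had 1 among 30, with folds of 10.7, 14.3, 9.22 and 8.97. The Zbtb16 member was close to the threshold with a gap of 20.6 points, while its pileups, 56 and 109 in WT and 44 and 46 in KO, were among the larger ones. Of the c-Maf target list, 4 of 154 shared regions were members, at Il17a, Il17f, Il1r1 and Havcr2, and 1 was mirrored, again at Sox5. The first 3 genes stand in both lists. At the Havcr2 promoter the folds were 6.91 in WT 1, 10.4 in WT 2, 5.33 in KO 1 and 7.05 in KO 2. The 3 other shared regions at Havcr2 all ranked higher in both KO libraries than in both WT libraries.

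The MAF, CNC and AP-1 list had 3 members among 115 shared regions, at Maf, Mafg and Atf3. Mafg encodes a small MAF protein, which dimerizes with CNC factors and lacks a transactivation domain. Of 4 shared regions at Mafg 1 was a member, and the median KO minus WT difference over the 4 was 1.98 points. The member (chr11:120631049-120631589) lay inside the gene, 1958 bp from the start, with folds of 9.36 and 12.4 in WT and 4.77 and 4.79 in KO. The pileups of 65 and 144 against 26 and 29 made it one of the members whose counting intervals were apart. The Atf3 member reached the promoter shown above and ended 24 bp short of the gene body, with folds of 5.76, 9.16, 4.92 and 5.14.

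Cytokine receptors had 4 members among 171 shared regions, at Il17re, Il4ra, Il7r and Il1r1. Il17re encodes a receptor subunit for IL-17C, and its member lay 451 bp from the start with folds of 13.0 and 17.3 in WT and 7.26 and 8.14 in KO. At Il4ra, the IL-4 receptor α chain gene, the folds were 11.6 and 15.8 in WT and 6.56 and 8.21 in KO, from pileups of 71 and 144 against 29 and 42. Counting intervals were apart at both genes. The other 7 shared regions at Il4ra were not members.

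T cell identity and signalling genes had 4 members among 139 shared regions. Cd247, the gene of the CD3 ζ chain, held 2, and the wider gap was at chr1:165801981-165802379 with folds of 8.52, 12.8, 4.48 and 5.78. Zap70, the kinase recruited to ζ, had folds of 9.74, 15.6, 7.30 and 5.54 at a region 416 bp from its start. At Cd247 and Zap70 both KO folds were below both WT folds. The MAP kinase cascade list also had 4 members, among 156 shared regions, at Map3k1, Map2k6, Dusp4 and Mapk14, and 1 mirrored region, at Dusp5. The largest gap there was at Map3k1 with folds of 16.2, 19.3, 7.99 and 10.8.

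The immature thymocyte and TCF1 list had 2 members among 277 shared regions, at Tox and Ets1. Both KO percentiles were below both WT percentiles in 66 of its regions (23.8%), against 18.1% of all shared regions. They were above in 34 (12.3%), against 18.6%. The median KO minus WT difference of the list was −2.82 points, against −0.0456 over all shared regions. The rule used this contrast, so nothing is read from these values. The Tox member, 63.7 kb outside the gene, had folds of 6.22, 8.83, 5.33 and 3.98, and the Ets1 member 5.73, 8.25, 4.61 and 4.25. Inside Tox a mirrored region (chr4:6963554-6963873) had percentiles of 8.19 and 24.0 in WT and 45.4 and 51.3 in KO. Chemokine receptor, integrin and egress genes had 2 members among 163 shared regions, at S1pr1 and Klf2, a receptor for sphingosine phosphate and the factor that drives its gene. The S1pr1 member, 48.1 kb from the gene, had folds of 17.8 and 22.8 in WT and 11.1 and 14.5 in KO. A mirrored region of the same gene, at 43.4 kb, went the other way, with percentiles of 2.91 and 7.95 in WT and 49.8 and 32.0 in KO. Chromatin regulators had 2 among 188, 1.06%, at Arid1b, a subunit gene of the BAF remodelling complex, and Tet2, and as many mirrored regions, at Dnmt3a and again at Arid1b. The T cell receptor response list had 1 member among 108, at Egr1, and no mirrored region. The type 1 program had none among 111 shared regions, and it had no mirrored region either. The lists of αβ thymocyte, B cell, myeloid, erythroid, stromal and housekeeping genes had no member, with 8 to 74 shared regions a list, of which fewer than 1 would be a member at the overall share of 1.26%. These counts are too small to set the lists apart from all shared regions. In total 28 members at 27 genes of the lists were found, and the counting intervals were apart in 7 of them.

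**Figure D3:**
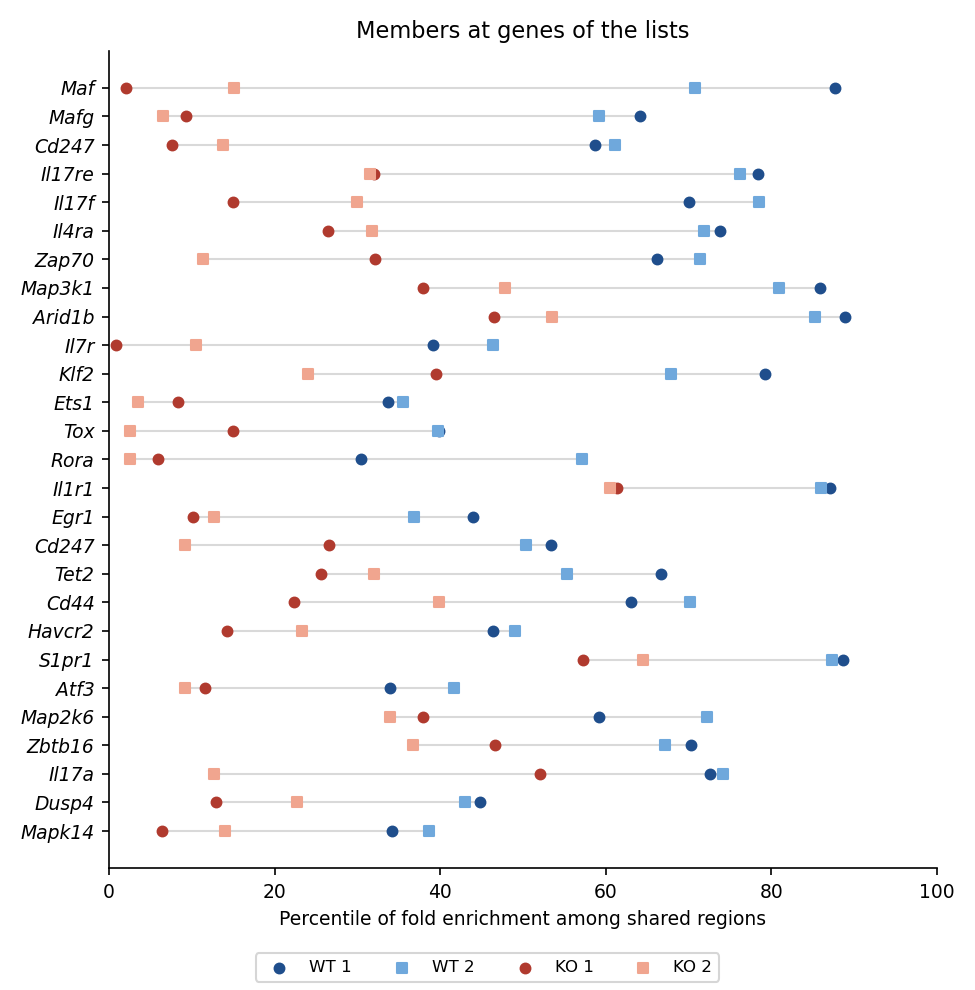
Percentile of fold enrichment among shared regions (x axis) in each library for 27 of the 28 members at genes of the lists, ordered by gap from Maf (55.7 points) to Mapk14 (20.1 points). Blue points are WT and red points KO; libraries of one genotype lie close together at Il1r1 and far apart for KO at Il17a.

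Position relative to genes was not used by the rule. The start-site table had no entries for chromosome 18 and lacked some genes elsewhere, Maf and Car13 among them. A region whose own gene is missing there can be counted as far from a start. Of the 955 members outside chromosome 18, 51 lay within 1 kb of a listed start site, 5.34% (95% Clopper-Pearson interval 4.0 to 6.96, counting error only). Among all shared regions the share was 19.8%, and among mirrored regions 3.67%. Low start-site content was thus common to regions that ranked lower and to those that ranked higher in KO. Regions of high WT rank are more often at start sites, so the share was also taken within bands of the lower WT percentile. Between the 25th and 50th percentile it was 5.47% of members against 13.6% of shared regions, between the 50th and 75th 6.38% against 18.2%, and above the 75th 2.04% against 36.4%. Members lay inside a gene body in 67.9% of cases against 71.7% of all shared regions, and more than 30 kb from a start site in 37.1% against 30.6%. Their median distance to a listed start site was 19857 bp, against 13724 bp. Gene ends do not rest on the listed starts. Within 1 kb of either gene end, a measure added after seeing the data, lay 12.7% of members and 27.0% of all shared regions. The share near start sites depended on WT 2: without that library, with the rule applied to WT 1 alone, 3773 regions met it and 15.5% of those with a start-site entry were within 1 kb. Leaving out another library gave 6.84% without WT 1, 8.56% without KO 1 and 7.05% without KO 2.

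**Figure D4:**
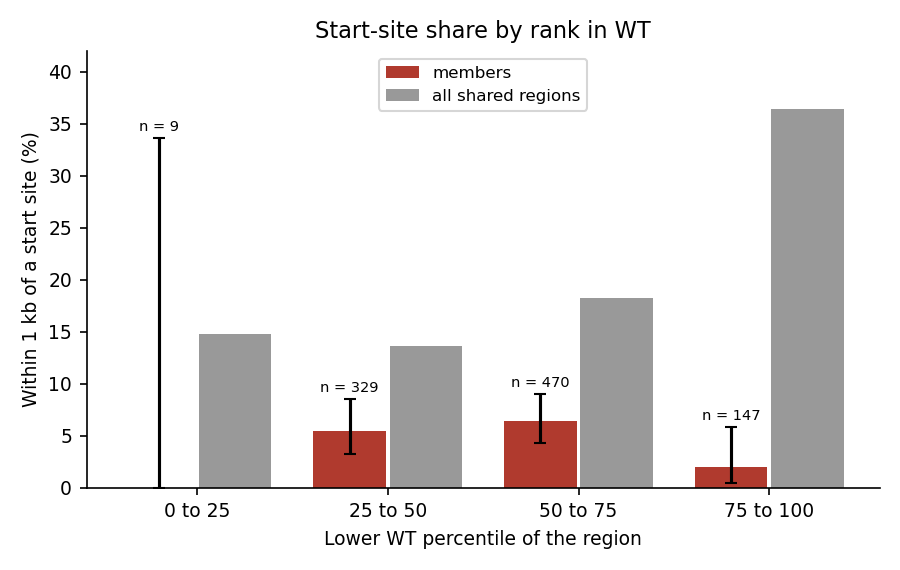
Share of regions within 1 kb of a listed start site (y axis, percent) by band of the lower WT percentile (x axis), for members (red, with exact 95% intervals and the number of members) and all shared regions (grey). In the 3 upper bands the member share stays at or below 6.38% while that of all shared regions rises from 13.6% to 36.4%; the lowest band holds 9 members.

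Shared regions close to members, with all members left out, did not share their lower rank in the median. None of these neighbours could meet the rule. The 439 other shared regions within 2 kb of a member had a median difference between KO and WT mean percentiles of 1.44 points, and those at 2 to 10 kb of 0.142. Between 10 and 50 kb the median was −0.561 points over 5552 regions. Members themselves had a median of −35.6 points. Another member lay within 10 kb of 2.22% of members, against 2.20% of all shared regions, and within 100 kb of 19.7% against 16.8%. A region called in both WT libraries and in neither KO library lay within 10 kb of 8.26% of members and of 7.77% of all shared regions, and the reverse kind within 10 kb of 9.97% and 9.49%.

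**Figure D5:**
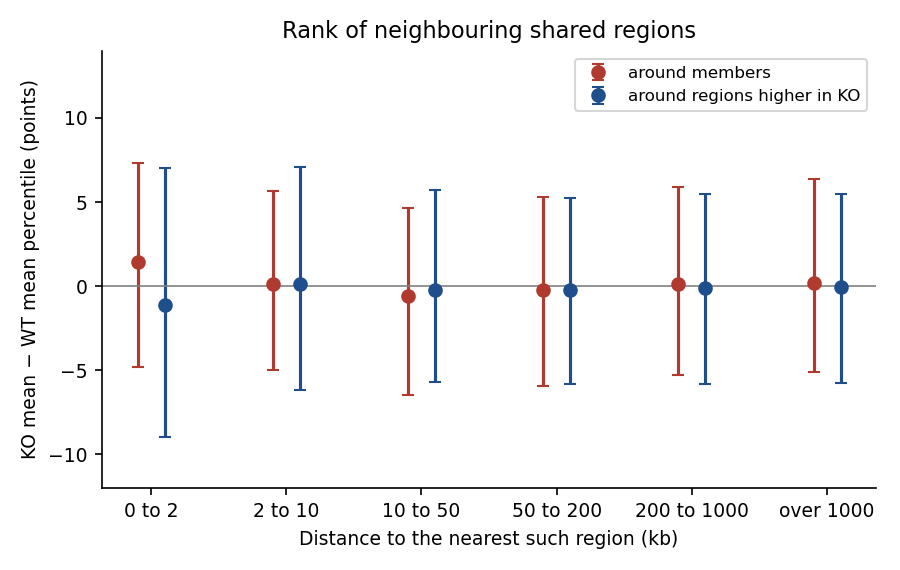
Difference between the mean KO and the mean WT percentile (y axis, points) of other shared regions by distance to the nearest member (red) or to the nearest region that ranked higher in KO (blue). Members are left out of the red series, and mirrored regions out of the blue one. Points are medians and bars run from the first to the third quartile; around members the medians stay between −0.561 and 1.44 points at every distance.

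The local background that enters the fold also differed. Divided by the lowest background of the library, it had a median of 1.18 in WT 1, 1.73 in WT 2, 1.18 in KO 1 and 1.39 in KO 2 at members, against 1.30, 1.82, 1.72 and 2.08 at all shared regions. At members, then, both the summit and the local background stood below those of all shared regions in KO. Ranking by the summit pileup alone found 1039 regions among the 78383 with whole pileups in all libraries, and 730 of the members were among them.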

How the data were processed

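Omni-ATAC-seq libraries of 2 WT and 2 KO samples were analysed from 1 peak list each. The submitters' processing notes list, with no roles, MACS2 2.1.1, Bowtie2 2.3.4.1 and deepTools 3.1.2 beside bedtools, Picard, cutadapt and Trim Galore, with mm10 and GRCm38 as builds. A Tn5 shift of the reads or a removal of duplicates is not given in the sources used here. Every deposited list gives for each peak a score, a fold enrichment, a −log10 p, a −log10 q and the summit offset. All were computed by the authors within each library. The score was 10 times the −log10 q without decimals in over 99.9% of peaks. The fold was the summit over the local background, with 1 added to each, a ratio within the library. These are the authors' values, and peaks had been called library by library. A fold depends on library depth through the local background and the added 1, which is why percentiles within a library were compared.

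Overlapping peaks (at least 1 bp) on chromosomes 1 to 19 and X were merged, and the highest fold of each library in a shared region was ranked among the shared regions. The lowest −log10 q over all lists was 1.00. Summit pileups were solved from each deposited pair of fold and −log10 p under a Poisson model, with a tolerance of 0.001 in −log10 p, and came out whole for 99.7% or more of the highest peaks of shared regions in every library. Read totals were not used here. Each region took the name of the closest gene body up to 100 kb away in a RefSeq table of GRCm38.p6, which gives no exons, so exon, intron and UTR positions are not given. Start sites came from the RefSeq promoter table, which has strand but no chromosome 18. It also lacked the starts of some genes elsewhere, such as Maf, Car13, Dusp4 and S1pr1, so distances are to the nearest listed start. Of 337 entries in 17 gene lists, 336 matched. The planned motif search in windows around all summits was not run, because a genome sequence was not used here.

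Named were the 20 members with the widest gap, 8 of the 12 genes with at least 3 members (most members first, ties by widest gap), members at listed genes (1 is not reported here), the 5 regions on either side of the threshold and the 5 members ranked highest in WT. The members and lists were chosen with earlier results of these data known. No test was run on the ranks; shares carry exact Clopper-Pearson 95% intervals, and pileups exact Poisson 95% intervals. Alternatives were other ranking values, gaps, peak filters and distances, leaving out each library, and the replicate numbers as pairs. Merging and pileup recovery were tested on simulated data. Python 3.11.15, numpy 2.4.6, pandas 2.3.3, scipy 1.17.1 and matplotlib 3.10.9 were used.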

Additional observations from a re-analysis of the deposited data

How the results depend on the processing

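The count of 993 members was within 1.5 times of its value when regions were ranked by −log10 q (1180) or summit pileup (1039, added after seeing the data), with a −log10 q of at least 5 (743), an equal number of peaks per library (903), a common base (973), widths of at least 100 bp (814) or autosomes only (974). It changed to 3300 with a gap of 10 points and 370 with 30. Leaving out 1 library, which leaves fewer values to meet the rule, gave 2904 regions without WT 1, 3773 without WT 2, 2222 without KO 1 and 2903 without KO 2. The share near start sites, 5.34%, was 7.22% when ranked by −log10 q, 9.79% and 4% at gaps of 10 and 30 points, 6.97% with a −log10 q of at least 5, 16.8% within 5 kb (31.4% of all shared regions) and 12.7% at either gene end (27.0%, added after seeing the data). Leaving out 1 library gave 6.84% to 15.5%. It was below the share of all shared regions in every setting run.

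With the replicate numbers as pairs (replicate block), in which KO 1 is set against WT 1 and KO 2 against WT 2, 1464 regions met the gap, of which 6.58% lay near a start site. The differences between numbers correlated across the 78650 shared regions with r = 0.116, and with 2 pairs the numbers do not establish a pairing. The regions named for lying next to the threshold were left out of this check, which covered 76 named regions. Over the 7 settings that neither pair the libraries nor leave one out, these 76 gave 427 values on the same side of the threshold. A further 35 values lost it, and 70 values, summed over settings, were missing because the region dropped out. None of the values changed direction. The fewest stayed with a −log10 q of at least 5, where 40 of the 76 regions kept the gap and 4 lost it. The planned share of TGCTGA around all summits, with its alternatives, was not run. The KO pileups of members, with medians of 12 and 14, limit the precision of single regions.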
